A study of Mus musculus with 4 samples.

Results

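Neural, muscle and liver microRNAs (miRNAs) were followed on 4 2-colour arrays of mouse activated T cells, as RNAs best known from other tissues. Its members were the probes whose ID carried one of 10 names of tissue-restricted miRNAs, a rule that uses names and no measured value. Of the 178 features in the value table, 171 were miRNA probes and 7 were control RNAs. The set held 7 of the 171 miRNA probes: miR-124a, miR-9, miR-128 and miR-153 for neural tissue, miR-133 and miR-206 for muscle and miR-122a for liver. The names miR-138, miR-1 and miR-133a matched no probe. The platform annotation gave a gene symbol for 1 of the 7, probe 1org-206 (Mir206), and the others are named here by their probe IDs (1org-124a, 1org-9, 1org-128, 1org-153, 1org-133 and 1org-122a).

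Each array set total RNA of activated T cells that had received Foxp3, the lineage-defining transcription factor of regulatory T cells, against total RNA of activated T cells that had received a control vector. There were 2 arrays at 72 h and 2 at 96 h, with the Foxp3 RNA in Cy5 on replicate 1 and in Cy3 on replicate 2 of each time point. Arrays are named below by the time and by the dye of the Foxp3 RNA (72 h Cy5, 72 h Cy3, 96 h Cy5 and 96 h Cy3). By their labels, the control vector cells were also activated and transduced, and they are taken to share the time of the Foxp3 cells. No source used here gives the mouse strain, the age, the type of vector, the way of activation or the number of cultures. Arrays of one time point held the same pair of labelled RNA sources and were counted together as 1 replicate, which makes the 2 time points the n of each mean and SD below. Nothing said that the time points came from separate cultures, so the spread behind the p-values may be technical. It also holds any difference between 72 h and 96 h, because the averages of these times served as the replicates.

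A miRNA is a short RNA that guides Argonaute proteins to messenger RNAs, mainly through its seed, bases 2 to 8 from the 5′ end. Some miRNAs are made almost only in 1 kind of tissue. miR-124 and miR-9 act in neuronal differentiation, miR-128 and miR-153 are enriched in brain, miR-133 and miR-206 belong to the muscle miRNAs that MyoD and its relatives switch on, and miR-122 is the dominant miRNA of hepatocytes. They are best known outside the immune system, although miR-206 and miR-9 have also been described in T cells. The deposited values are ratios of the 2 channels. They hold no level, so the brightness of these probes, and of the T cell miRNAs that would check the cell type, was not analysed here.

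Mature sequences were read from RefSeq (build GRCm38.p6) for 4 of the 7 miRNAs, all those matched in the table used, and are shown to tell the seeds of these 4 apart. No sequence was matched for miR-124a, miR-133 or miR-122a. The arm was taken from the older name, in which a name without a star stands for the main arm, and the probe's own sequence was not analysed here. Capitals mark the seed, and letters run 5′ to 3′.
miR-206-3p: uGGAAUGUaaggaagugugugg
miR-128-3p: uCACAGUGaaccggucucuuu
miR-9-5p: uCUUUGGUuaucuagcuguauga
miR-153-3p: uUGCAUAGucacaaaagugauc

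The 4 seeds were all different. The RefSeq table used is not complete. Among its mature miRNAs, 2 others had the seed of miR-206 (miR-6349 and miR-6382), and none had that of miR-128, miR-9 or miR-153. miR-206 is also known to share its seed with miR-1, whose sequence was not analysed here. The GC content was 45.5% for miR-206, 47.6% for miR-128, 34.8% for miR-9 and 36.4% for miR-153. miR-206 lies at chr1:20679055-20679076 on the plus strand, within the bounds of the long noncoding RNA gene Lincmd1. miR-128 has 1 copy at chr1:128202404-128202424 (plus strand) within the bounds of R3hdm1 and another at chr9:112118644-112118664 (minus strand) within those of Arpp21. miR-153 lies at chr12:117250860-117250881 on the plus strand, within the bounds of Ptprn2, which codes for a phosphatase-like protein of secretory vesicles. miR-9 has 3 copies on the plus strand with the same mature sequence, at chr3:88215613-88215635, chr7:79505279-79505301 and chr13:83738821-83738843, each within the bounds of a long noncoding RNA gene (Gm3764, Mir9-3hg and C130071C03Rik).

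Ratios are given as log2, an assumption that the values allow. The labels did not settle which channel was divided by which. A pair of readings was therefore carried through: in the turned reading each value is Cy5 over Cy3 and the sign is changed on arrays with Foxp3 in Cy3, so that a value above 0 stands for a level likely higher with Foxp3; in the deposited reading the authors are taken to have turned the values already. The turned reading rests on Cy5 being the second channel of every array. Over the 171 miRNA probes, the deposited values of the Cy5 and Cy3 arrays had a Pearson correlation of 0.66 at 72 h and of -0.12 at 96 h. Ratios that follow Foxp3 and are not yet turned would run in opposite directions on such a pair, and turned ones in the same direction. Which reading holds was not tested. The array medians over all 171 miRNA probes were -0.59 (72 h Cy5), -0.83 (72 h Cy3), 1.27 (96 h Cy5) and 0.02 (96 h Cy3). The 96 h Cy5 array stood apart, and the members past 1.5-fold at 96 h are also given without it. The 96 h counts of other lists include it.

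The muscle miRNA miR-206 was the highest of the 7 on every array. Its deposited log2 ratio was 1.32 on the 72 h Cy5 array, 0.23 on the 72 h Cy3 array, 4.30 on the 96 h Cy5 array and 1.36 on the 96 h Cy3 array, and values of the other miRNAs follow in this order. All 4 values lay above 0, and within each array miR-206 ranked 5th, 33rd, 7th and 18th of the 171 miRNA probes. It was thus among the highest 25% of probes on each array whichever dye held the Foxp3 RNA, as were 6 of the 171 probes (3.51%). miR-206 is a skeletal muscle miRNA that promotes myogenic differentiation.

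The liver miRNA miR-122a took the other end. It had deposited ratios of -1.62 and -1.82 at 72 h and of 0.09 and -1.68 at 96 h. The values of 3 arrays lay close together well below 0, and the 96 h Cy5 value was just above 0. On the 96 h Cy3 array it was the lowest of all 171 miRNA probes, and on the other 3 arrays it ranked from 151.5 to 168 of 171. It was among the lowest 25% on all 4 arrays, as were 2 of the 171 probes (1.17%). The 25% limit was chosen after the values had been seen.

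The second muscle miRNA, miR-133, which acts in the growth and excitability of muscle cells, did not share the signs of miR-206. It had deposited ratios of -1.33 and -1.28 at 72 h and of 1.38 and -0.26 at 96 h. Both 72 h values lay below 0 and almost coincided, and those of 96 h fell on both sides of 0. Probes 1org-1b and 1org-1d, which carry the number of miR-1, the partner that shares its transcripts with miR-133a, were looked at after the table had been seen. They ran beside miR-133 with -1.09 and -0.62 at 72 h with Foxp3 in Cy5, -1.39 and -1.01 with Foxp3 in Cy3, 1.35 and 1.33 at 96 h with Foxp3 in Cy5, and -0.48 and -0.47 with Foxp3 in Cy3.

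Among the neural miRNAs, miR-124a and miR-128 formed one pair and miR-9 and miR-153 another at 72 h. miR-124a, which represses non-neuronal transcripts in neurons, had -0.50 and -0.84 at 72 h and 2.05 and 0.11 at 96 h. miR-128 had -0.13 and -0.61 at 72 h and 2.38 and 0.27 at 96 h. Both were below 0 on the 72 h arrays and above 0 on the 96 h arrays, and at 72 h both lay above the array's median except for miR-124a with Foxp3 in Cy3, which was at -0.01 relative to it. miR-9 had -2.06 and -1.36 at 72 h and 2.09 and -0.46 at 96 h. It moved most among the 7, from 170th of the 171 on the 72 h Cy5 array to 43rd on the 96 h array of the same orientation. miR-153 had -1.57 and -1.31 at 72 h and 1.01 and -0.77 at 96 h, below the median of each array. The star arm of the miR-9 hairpin, probe 1org-9*, which is no member of the set, had -1.16 and -2.27 at 72 h and 0.82 and -0.84 at 96 h.

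**Figure D1:**
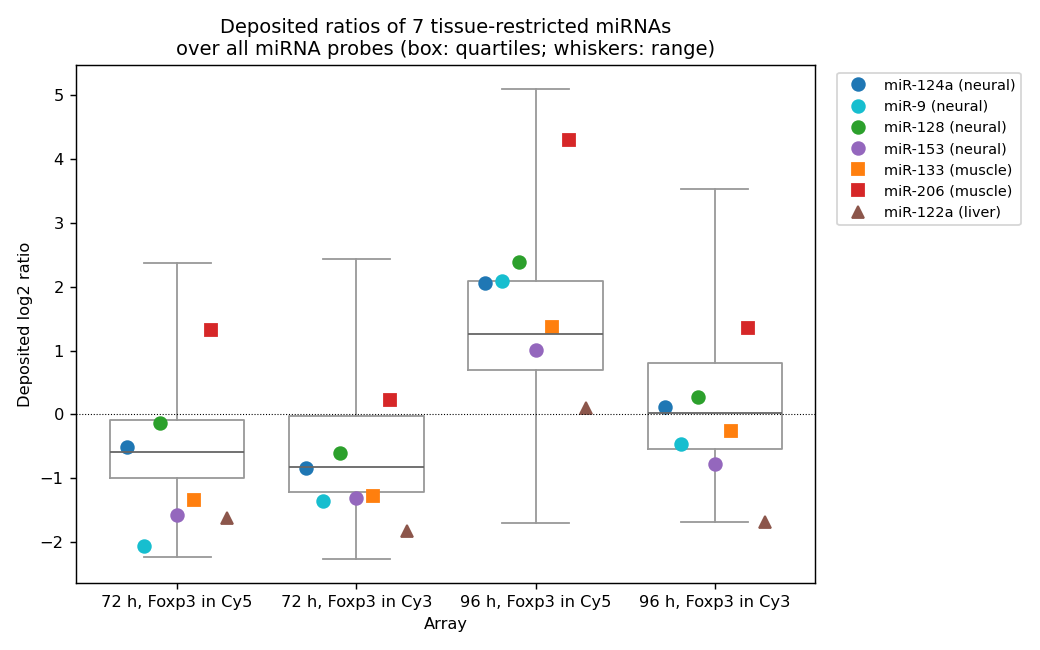
Deposited log2 ratio of the 7 miRNAs (coloured symbols: circles neural, squares muscle, triangle liver) on each of the 4 arrays, over grey boxes for the 171 miRNA probes (line: median; box: quartiles; whiskers: lowest and highest). miR-206 is the highest of the 7 on each array, and miR-122a, at -1.68, is the lowest of all probes on the 96 h Cy3 array.

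The order of the 7 was steady at its upper end and moved below it. miR-206 came first and miR-128 next on all 4 arrays, and miR-124a in place 3 on all but the 96 h Cy5 array, where it was in place 4. miR-122a came last on all but the 72 h Cy5 array, where miR-9 was lower. miR-9 moved most, through places 7, 6, 3 and 5. Over the 7 probes, the 6 pairs of arrays had Spearman rank correlations from 0.64 (72 h Cy5 against 96 h Cy5) to 0.96. Over the same probes, the 6 pairs of arrays had Pearson correlations from 0.83 to 0.97, pairs with exchanged dyes included. Without miR-206 they ran from 0.51 to 0.94 (6 probes), and without miR-206 and miR-122a from 0.50 to 0.97 (5 probes). Over the 171 miRNA probes the same pairs ran from -0.20 to 0.80. These correlations describe probes that share their arrays, are not independent and number only 7, and a difference between 7 probes and 171 was not tested. The lowest value over all probes was that of the 72 h Cy3 array against the 96 h Cy5 array, at -0.20, where the 7 had 0.95.

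Exchanging the dyes divides each time point's pair of values into 2 parts. The mean of both orientations is the part that stays when the dyes are exchanged, and their difference divided by 2 is the part that turns with them. The part that turns is the Foxp3 difference in the turned reading, and the part that stays is that difference in the deposited reading. At 72 h the part that stays was the larger in size for 7 of the 7, with a median of -1.31, while the part that turns had a median of 0.10. Over all 171 miRNA probes the part that stays was larger for 71.3%, and the medians were -0.67 and 0.07. At 96 h it was larger for 3 of the 7 (miR-206, miR-128 and miR-124a), beside 75 of 171 (43.9%). The 96 h medians of the 7 were 0.82 for the part that stays and 0.97 for the part that turns, against 0.65 and 0.81 over all miRNA probes. After centring of the arrays on their miRNA medians, the part that stays was larger for 6 of the 7 at 72 h (all probes 83.0%) and for 5 of the 7 at 96 h (all probes 31.0%).

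miR-206 had the highest part that stays, at 0.77 at 72 h and 2.83 at 96 h, against turning parts of 0.55 and 1.47. For miR-122a the part that stays was -1.72 at 72 h and -0.79 at 96 h, against 0.10 and 0.89. miR-9 had -1.71 and 0.82 as the part that stays, and its turning part went from -0.35 to 1.28. At 72 h the part that stays thus exceeded the turning part for all 3 of them, and at 96 h for miR-206 alone.

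**Figure D2:**
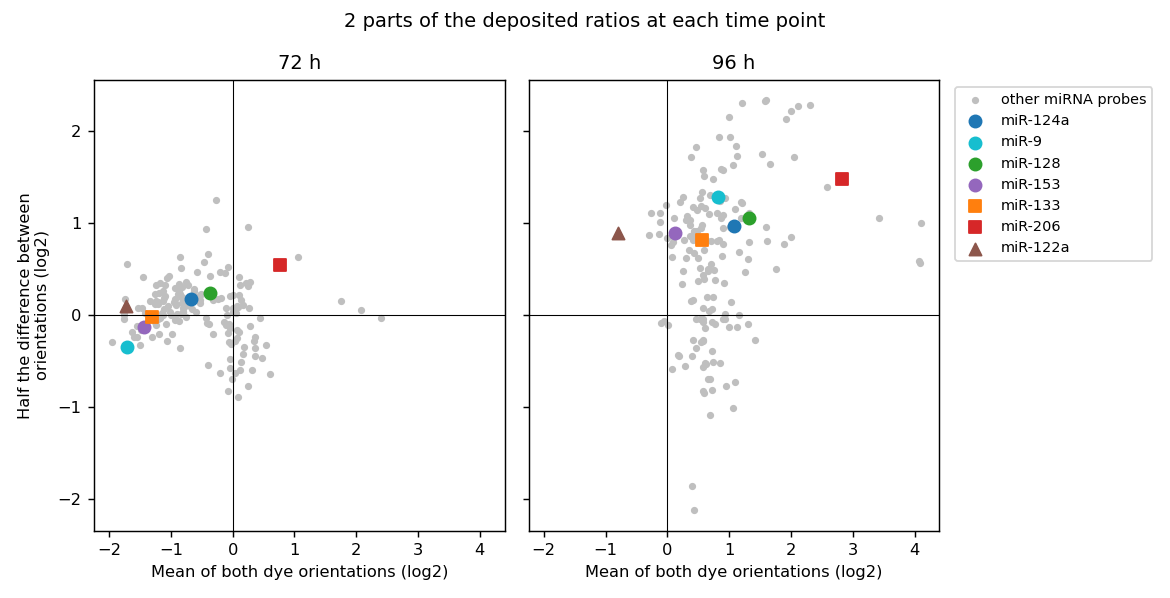
Each miRNA probe at 72 h (left) and 96 h (right), with the mean of both dye orientations on the horizontal axis and the difference between orientations (Cy5 array minus Cy3 array) divided by 2 on the vertical axis, both in log2. Coloured symbols are the 7 miRNAs and grey points the other miRNA probes. At 72 h the 7 spread along the horizontal axis from -1.72 to 0.77 and stay between -0.35 and 0.55 on the vertical one, and at 96 h all 7 lie between 0.82 and 1.47 on the vertical axis.

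The first comparison asked whether these levels differed between Foxp3 and control vector cells when both time points were combined. In the turned reading miR-206 had the highest mean log2 ratio of the 7, at 1.01 ± 0.65 (SD, n = 2). This mean combined 1.32 and -0.23 at 72 h with 4.30 and -1.36 at 96 h, so the arrays of each time point lay on opposite sides of 0. miR-128 followed at 0.65 ± 0.58, miR-124a at 0.57 ± 0.57, miR-122a at 0.49 ± 0.56, miR-9 at 0.46 ± 1.15, miR-133 at 0.39 ± 0.60 and miR-153 at 0.38 ± 0.72 (SD, n = 2 each). Each of these SDs was about as large as its mean or larger, except that of miR-206.

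None of the 7 was called by limma at a Benjamini-Hochberg adjusted p of 0.05 over the 171 miRNA probes, where 0% of all probes were called. The adjusted p of the 7 ran from 0.483 (miR-206) to 0.632 (miR-153). Only miR-206 had an unadjusted limma p under 0.05, at 0.0367, beside 16 of the 171 probes (9.36%). That unadjusted p was 0.0936 with arrays centred on the miRNA median, 0.0597 with centring on U6 and tRNA and 0.138 with a dye term, and it ran from 0.00831 to 0.393 with each array left out in turn. The fit had 1 residual degree of freedom. It took a common variance for all probes, so the standard error was 0.479 for every mean. None of the 7 had 1 sign on all 4 arrays in the turned reading, against 13 of 171 probes (7.6%). Centred on the miRNA medians, limma again called none of the 7, with 1.17% of all probes called, and their means ran from 0.01 (miR-153) to 0.64 (miR-206). The outcome rested on single arrays. A time point left with 1 array holds 1 dye orientation, so the part that stays when the dyes are exchanged no longer cancels there. The turned median of the 7 at 72 h was 0.10 with both arrays, 1.28 without the Cy5 array and -1.33 without the Cy3 array. Without the 72 h Cy5 array limma called 6 of the 7 on the likely higher side (all but miR-206; adjusted p from 0.0246 to 0.0413), where it called 55% of all probes. Without the 96 h Cy5 array it called none of the 7, and the means of miR-206 and miR-128 were -0.41 and -0.015.

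The deposited reading gave another picture. Its means are made of the parts that stay when the dyes are exchanged. They stand for a Foxp3 difference only if the authors had already turned the values, which is not known. There miR-206 had a mean of 1.80 ± 1.46 (SD, n = 2) and was above 0 on all 4 arrays, as were 7.02% of all probes, while miR-122a had -1.26 ± 0.65, miR-153 -0.66 ± 1.10, miR-9 -0.45 ± 1.79 and miR-133 -0.37 ± 1.32. miR-128 and miR-124a had 0.48 ± 1.20 and 0.21 ± 1.24. Limma called none of the 7 (lowest adjusted p = 0.770, miR-206), with 1.75% of all probes called. Centred on the miRNA medians as well, the deposited reading gave limma calls for miR-206, at 1.83 (adjusted p = 9.01e-05), and for miR-122a, at -1.22 (adjusted p = 0.0342). In that setting, which was added after the data had been seen, 4.09% of all 171 probes were called. The values of that setting were 1.48 at 72 h and 2.19 at 96 h for miR-206 and -1.01 and -1.44 for miR-122a, with a pooled standard error of 0.377.

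At 72 h alone, none of the 7 passed 1.5-fold with 1 sign on both turned arrays, while 13 of 171 probes did (7.6%). Counts within 1 time point rest on 1 replicate and have no test. The turned 72 h means ran from -0.35 (miR-9) to 0.55 (miR-206). They were means of opposite values: miR-9 had -2.06 and 1.36 on the turned arrays, miR-153 had -1.57 and 1.31, and miR-122a had -1.62 and 1.82. Read from 1 array, 6 of the 7 passed on the likely higher side without the Cy5 array, beside 105 of the 171 probes. Without the Cy3 array, 4 passed on the likely lower side, beside 86 of the 171, and miR-206 on the likely higher side, beside 8. In the deposited reading 5 of the 7 passed on the lower side (miR-124a, miR-9, miR-153, miR-133 and miR-122a), where 53.2% of all probes did. miR-206 passed on the higher side, with 2.92% of all probes.

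At 96 h, all 7 had turned means above 0, as had 127 of the 171 probes. miR-206 was at 1.47, miR-9 at 1.28, miR-128 at 1.06, miR-124a at 0.97, miR-153 and miR-122a at 0.89 each and miR-133 at 0.82. With 1 sign on both arrays, miR-9 (2.42-fold), miR-153 (1.85-fold), miR-122a (1.85-fold) and miR-133 (1.76-fold) passed 1.5-fold on the likely higher side, 4 of the 7 beside 46.2% of all miRNA probes. miR-206, miR-128 and miR-124a did not, because they lay above 0 before turning on both arrays. After centring on the miRNA medians only miR-9 still passed, at 0.65, with 17.5% of all probes on that side. All 7 means stayed above 0 with that centring, from 0.19 (miR-133) to 0.85 (miR-206). Without the 96 h Cy5 array, the remaining array put miR-122a at 1.68 and miR-153 at 0.77 past 1.5-fold on the likely higher side and miR-206 at -1.36 on the likely lower side, beside 41 and 56 of the 171 probes. In the deposited reading miR-206 at 2.83, miR-128 at 1.33 and miR-124a at 1.08 passed on the higher side, where 33.9% of all probes did.

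**Figure D3:**
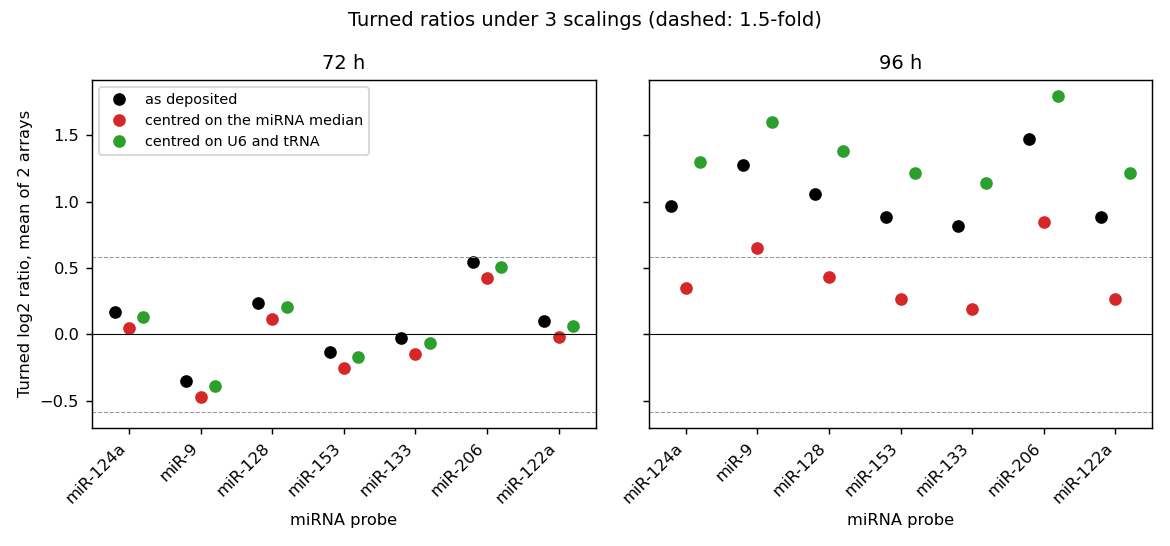
Turned log2 ratio of each of the 7 miRNAs, as the mean of the 2 arrays at 72 h (left) and 96 h (right), with the values as deposited (black), centred on each array's miRNA median (red) and centred on each array's U6 and tRNA probes (green). Dashed lines mark 1.5-fold. At 96 h all 7 lie above 0 under each scaling, and at 72 h miR-122a moves from 0.10 to -0.02 when centred on the miRNA median.

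The time points were then set against each other. In the turned reading none of the 7 had time points at least 1.5-fold apart whose arrays did not overlap, against 12 of 171 probes (7.02%). Centred on the miRNA medians it was again none of the 7, while 13.5% of all probes were apart with 96 h higher. Centred on U6 and tRNA, 4 of the 7 were apart, all higher at 96 h, and so were 78 of the 171 probes (45.6%). In the deposited reading 6 of the 7 were apart, all higher at 96 h, as were 116 of the 171 probes (67.8%). Within 1 dye orientation, which needs no turning, every one of the 7 had a higher deposited ratio at 96 h than at 72 h. With Foxp3 in Cy5 the difference ran from 1.71 (miR-122a) to 4.15 (miR-9), with a median of 2.58, and with Foxp3 in Cy3 from 0.14 (miR-122a) to 1.13 (miR-206), with a median of 0.90. Over all miRNA probes the median differences were 1.98 and 0.75, and 158 and 156 of the 171 probes were higher at 96 h. Relative to each array's miRNA median, 6 of the 7 were higher at 96 h with Foxp3 in Cy5 and 5 of the 7 with Foxp3 in Cy3, beside 95 and 74 of the 171 probes. In the deposited values, miR-124a and miR-128 lay below 0 on both 72 h arrays and above 0 on both 96 h arrays, as did 30 of the 171 probes with opposite signs at the time points (17.5%).

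Other RNAs on the arrays were compared by lists. On the 4 arrays, in the order 72 h replicates 1 and 2 and 96 h replicates 1 and 2, the medians of the 7 were -1.33, -1.28, 2.05 and -0.26. A list of 14 other tissue-restricted miRNAs (8 neural, 1 of muscle and 5 of liver, gut, kidney or pancreas) had -1.02, -1.15, 1.43 and -0.71. The 20 measured miRNAs of a T cell list, among them miR-142, miR-150, miR-155 and miR-16, had -0.06, 0.28, 0.12 and 0.68. U6 and the 4 tRNAs had -0.27, -0.34, 0.43 and 1.08. The array medians of the 7 thus spanned 3.39 on the log2 scale, those of the 14 spanned 2.58, those of all 171 miRNA probes 2.09, those of U6 and tRNA 1.42 and those of the T cell list 0.74.

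Single probes were compared by their spread. The range over the 4 arrays was 4.15 for miR-9, 4.07 for miR-206, 2.99 for miR-128, 2.89 for miR-124a, 2.71 for miR-133, 2.58 for miR-153 and 1.91 for miR-122a. The median range was 2.89 for the 7, 2.91 for the 14 others, 2.47 for all miRNA probes and 1.57 for the T cell list. A range of at least 1.91, the smallest of the 7, was seen for 13 of the 14 others, 116 of the 171 miRNA probes (67.8%) and 5 of the 20 T cell miRNAs. These are counts and medians with no test, and the brightness of the probes in each list was not analysed here. Whether brightness has a part in the wider ranges was not tested.

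**Figure D4:**
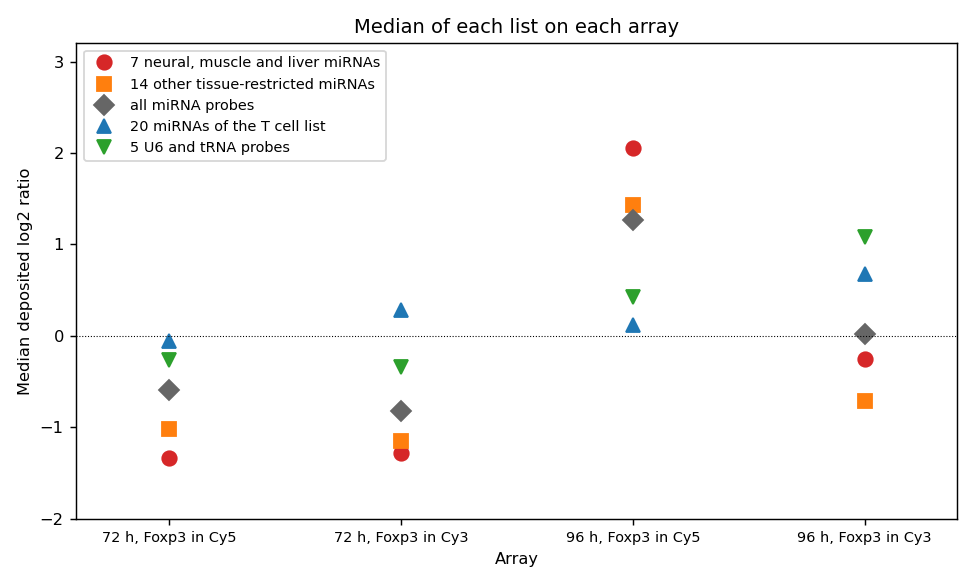
Median deposited log2 ratio of 5 lists of probes on each of the 4 arrays. The 7 neural, muscle and liver miRNAs (red circles) span 3.39 between their lowest and highest array, and the 20 miRNAs of the T cell list (blue triangles) span 0.74.

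In the turned reading, the 14 other tissue-restricted miRNAs had medians of 0.08 at 72 h and 0.99 at 96 h, beside 0.10 and 0.97 for the 7. None of the 14 passed 1.5-fold at 72 h. At 96 h, 11 of the 14 passed on the likely higher side, beside 79 of the 171 miRNA probes (46.2%). The extremes of the 14 at 96 h were 1org-192 at 2.33 and 1org-149 at -0.13. The T cell list had medians of -0.14 at 72 h and -0.28 at 96 h. Of its 20 members, 1 passed 1.5-fold on the likely higher side and 6 on the likely lower side at 96 h. On these sides, 79 and 9 of the 171 miRNA probes passed. At 72 h, 2 of the 20 passed on the likely higher side and 4 on the likely lower side. The counts over the 171 probes were 4 and 9 there. Centred on the miRNA medians, the 96 h medians were 0.35 for the 7, 0.36 for the 14 and -0.90 for the T cell list. In the deposited reading the medians of the 7 were -1.31 at 72 h and 0.82 at 96 h, those of the 14 were -1.13 and 0.58, and those of the T cell list 0.10 and 0.57. The side on which the 7 lay relative to the T cell list therefore changed with the reading only at 72 h.

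The probes most like the 7 were found by Euclidean distance over the 4 deposited values. Nearest to the median profile of the 7 were 1org-125b (distance 0.16), 2org-99 (0.22), 1org-145 (0.33), 1org-148 (0.46) and 2org-199b (0.53). Of single members, the nearest other probe of miR-206 was 1org-99b (Mir99b in the annotation), at a distance of 1.11 with values of 1.69 and 0.43 at 72 h and 4.47 and 2.37 at 96 h. The nearest of miR-122a was 2org-199a at 0.70. The other 5 each had a probe within 0.48: 1org-290 for miR-124a, 1org-10b for miR-9, 1org-27b for miR-128, 1org-300 for miR-153 and 1org-184 for miR-133. miR-206 and miR-122a were thus the most isolated of the 7 by this measure.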

How the data were processed

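Per the labels, 4 2-colour miRNA arrays set total RNA of mouse activated T cells carrying Foxp3 against that of cells carrying a control vector. The authors' deposited value table was used, taken as log2 ratios. No source used here gives its scanner, background correction, normalization, log base or direction, and scanner intensities were not analysed here. The values ran from -2.27 to 5.10, none was missing, and the number of arrays limits the precision. Control RNAs were left out of tests.

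Turned ratios (see the results) were averaged per time point and fitted over 171 miRNA probes with an intercept-only model in limma 3.58.1 (R 4.3.3), with Benjamini-Hochberg adjustment. Counts past 1.5-fold asked for 1 sign on both arrays and had no test. The fit was also run on simulated probes with independent noise and no array-wide shift. The medians of these arrays differ, so that run does not vouch for the fit here. Named were all members, the 5 probes nearest to their median profile, each member's nearest probe and the 2 extremes of the 14 other tissue-restricted miRNAs. IDs with the number 7, which the table uses for let-7, were left out of that list, and let-7 names of the T cell list matched no ID. Members and lists were chosen with earlier results of these data known.

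Alternatives were 3 other scalings, the deposited reading, a 2-fold threshold, natural logs, each array left out, a robust variance, control probes included and a 4-array model with a dye term, which treats arrays of shared RNA as independent. The deposited reading combined with centring was added after seeing the data.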

Additional observations from a re-analysis of the deposited data

Results flagged for a closer look

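In the deposited values, both 72 h arrays of 1org-124a lay below 0 and both 96 h arrays above 0, and its 96 h mean lay 1.75 above its 72 h mean on the log2 scale. The same was seen for 1org-128, whose means were 1.69 apart. The difference between the time points was not tested for either. In the turned reading neither had opposite signs at the time points.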

How the results depend on the processing

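The number of members past 1.5-fold at 96 h, all on the likely higher side, was 4 as reported. It was 1 with arrays centred on the miRNA median, 0 with arrays also scaled and 1 at a 2-fold threshold. On that side, 79, 30, 21 and 46 of the 171 probes passed in these settings. At 72 h, counted on either side, the number of members was 0 (all probes 13). That number became 6 in the deposited reading and 5 in that reading with centring (96 and 76). Members with 1 sign on all 4 arrays, 0 as reported (13), became 1 with centring on U6 and tRNA, 1 in the deposited reading and 4 in that reading with centring. Of all probes, 21, 12 and 34 had 1 sign of either direction there. Members apart between the time points, 0 as reported (12), became 4, 6 and 1 in those settings, all higher at 96 h. On that side there were 78, 116 and 22 of all probes. Limma called 2 members in the centred deposited reading. With each array left out in turn, members past 1.5-fold at 72 h ran from 0 (all probes 13) to 6. Those 6 passed without 72 h replicate 1, on the likely higher side, as did 105 of the 171 probes. With the same omissions, members with 1 sign ran from 0 to 4 (all probes 14 to 93) and members apart from 1 to 5 (22 to 120). Each omission left a time point with 1 dye orientation, where the part that stays does not cancel. Limma calls ran from 0 to 6. All 6 calls (the members other than miR-206) came without 72 h replicate 1, where 94 of 171 probes were called.

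Of 63 member means recomputed, 39 kept their sign and their side of the threshold. Another 7 became calls with the same sign. These arose without 72 h replicate 1 (94 of 171 probes called) or in the centred deposited reading (7 of 171). The other 17 changed sign, among them miR-122a in the centred deposited reading, which also became a call. Over all 171 probes, changes of sign were not counted. Sign changes were seen for miR-9 at -0.044 scaled, -0.447 deposited, -0.415 deposited and centred and -0.394 without 72 h replicate 2, for miR-153 at -0.060, -0.662, -0.630 and -0.342, for miR-133 at -0.029, -0.373, -0.341 and -0.259, for miR-122a at -1.26, -1.22 and -0.366 in the last 3, and without 96 h replicate 1 for miR-128 at -0.015 and miR-206 at -0.407. With each array left out in turn, the means ran from -0.394 to 1.32 for miR-9, -0.342 to 1.10 for miR-153, -0.259 to 1.05 for miR-133, -0.366 to 1.35 for miR-122a, 0.027 to 1.11 for miR-124a, -0.015 to 1.31 for miR-128 and -0.407 to 2.42 for miR-206. The cause was not tested. Natural logs changed none of these counts of members. A robust variance, control probes and the dye term, run for limma alone, gave no member an adjusted p under 0.05. Probe brightness was not analysed here.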
